A study of Mus musculus with 59 samples.

Results

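The 4 mouse Hox clusters were examined in chromatin profiles of brainstem tumours and cultured neural precursors carrying a K27M or a wild-type tagged H3f3a allele. The clusters were taken as 4 fixed windows of build mm9: HoxA at chr6:52090000-52290000, HoxB at chr11:96040000-96245000, HoxC at chr15:102740000-102875000 and HoxD at chr2:74449000-74664000. Every island or peak of every deposited list that overlapped a window was included. The windows and their 38 genes were thus set by position, but they were chosen with earlier results of these data known. No test below is independent of that choice. The intervals inside the windows were selected on measured signal, since each was called by the authors' software. Of 1107554 intervals in the 36 lists, 965 overlapped a Hox window, 423 of them in HoxA, 201 in HoxB, 81 in HoxC and 260 in HoxD. Of these 965, 282 were H3K27me3 islands, 416 H3K27ac peaks and 267 H3K4me3 peaks.

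Tumours were bulk, snap-frozen brainstem tissue from mice with Nestin-creERT2, a Cre recombinase under the Nestin promoter that acts after tamoxifen, together with a Cre-activated PDGFRαV544ins allele and Trp53flox/flox. K27M tumours carried in addition the Cre-activated knock-in H3f3aLSL-K27M-Tag/+, in which 1 copy of the histone H3.3 gene H3f3a encodes methionine in place of lysine 27, and the controls carried the tagged wild-type counterpart H3f3aLSL-WT-Tag/+, so the PDGFRα and Trp53 alleles were shared by all tumours. Neurospheres came from e15.5 embryos with Nestin-cre and the same H3f3a alleles, without the PDGFRα or Trp53 alleles, and were grown under neural precursor conditions. H3K27me3 was profiled in 6 K27M tumours (numbered 1 to 6), 5 WT tumours (7 to 11), and 3 cultures each of K27M hindbrain, K27M forebrain and WT hindbrain neurospheres. H3K27ac was profiled in the same 11 tumours and H3K4me3 in K27M tumours 2 and 6 and WT tumours 7, 9 and 10. K27M tumours 1 to 4 and WT tumour 9 were male and the other tumours female. Among the cultures, WT hindbrain culture F was male and the others female. The labels name no separate animal for each tumour or culture, so any p-value here reflects only how far these samples scatter. In bulk samples, fewer cells with a mark and less mark per cell cannot be told apart.

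Hox genes encode homeodomain transcription factors that assign position along the head-to-tail axis, and their order in a cluster matches the order in which they are switched on along that axis. Low-numbered genes such as Hoxa2, Hoxb1 and Hoxd1 are active in the hindbrain, whereas high-numbered genes such as Hoxa13, Hoxc13 and Hoxd13 act in the posterior trunk, limbs and genitalia. Silent Hox genes are covered by H3K27me3, the mark written by Polycomb repressive complex 2, while active ones carry H3K4me3 at promoters and H3K27ac at promoters and enhancers. The K27M form of H3.3 is known to lower H3K27me3 across the genome while leaving it at some strong Polycomb targets.

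No mm9 annotation or genome was used here, so positions are given by coordinate and no exon, intron or start site is assigned. The order of the genes was taken from RefSeq's gene table of assembly GRCm38.p6, which listed all 38 members. With increasing coordinate, HoxA runs from Hoxa2 to Hoxa13, whereas HoxB runs from Hoxb13 to Hoxb1, HoxC from Hoxc13 to Hoxc4 and HoxD from Hoxd13 to Hoxd1. RefSeq promoter sequences of the same assembly were at hand for 22 of the 38 members, with 24 promoters in all. The 250 bases before the start are shown for the first and last genes of HoxA and HoxD, because the marks differed most between samples along these clusters. They are written 5′ to 3′ on the gene's strand, and capitals mark each CG dinucleotide, the sequence feature of the CpG islands at which Polycomb complexes assemble.
Hoxa2: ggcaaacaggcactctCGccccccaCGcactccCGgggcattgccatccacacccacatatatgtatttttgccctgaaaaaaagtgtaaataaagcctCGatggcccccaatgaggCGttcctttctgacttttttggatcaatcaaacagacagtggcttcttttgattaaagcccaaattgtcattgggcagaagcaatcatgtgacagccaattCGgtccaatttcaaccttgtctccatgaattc
Hoxa13: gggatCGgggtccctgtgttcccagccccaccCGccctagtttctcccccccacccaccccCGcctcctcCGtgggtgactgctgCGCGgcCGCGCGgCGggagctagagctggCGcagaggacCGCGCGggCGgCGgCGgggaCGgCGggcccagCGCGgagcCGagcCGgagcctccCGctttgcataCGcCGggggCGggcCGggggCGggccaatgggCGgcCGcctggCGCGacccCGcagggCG
Hoxd13: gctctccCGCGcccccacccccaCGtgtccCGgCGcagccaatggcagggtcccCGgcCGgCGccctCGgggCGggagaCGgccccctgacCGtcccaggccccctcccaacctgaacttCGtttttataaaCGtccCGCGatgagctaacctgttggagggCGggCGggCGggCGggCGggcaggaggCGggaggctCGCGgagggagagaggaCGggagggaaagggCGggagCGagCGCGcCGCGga
Hoxd1: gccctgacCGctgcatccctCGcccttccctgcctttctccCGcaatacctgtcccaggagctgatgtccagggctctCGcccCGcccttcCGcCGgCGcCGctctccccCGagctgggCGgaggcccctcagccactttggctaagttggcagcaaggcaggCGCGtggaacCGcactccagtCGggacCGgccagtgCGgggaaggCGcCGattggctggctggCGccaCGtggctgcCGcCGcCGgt
Hoxa2 held 6 CG in these bases, Hoxa13 35, Hoxd13 31 and Hoxd1 24. Across the 24 Hox promoters the count ran from 2 in a promoter of Hoxd11 to 35 in Hoxa13, with a median of 12.5, against a median of 6 over all 32851 promoters in the table. CG, which reads the same on both strands, was present in 100% of the Hox promoters and in 92.1% of all. The ratio of observed to expected CG exceeded 0.6 in 13 of the 24, a share of 54.2%, against 34.0% of all promoters.

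Island lists held between 3208588 reads (WT tumour 11) and 16323822 reads (WT tumour 10), H3K27ac lists 36284 to 61251 peaks and H3K4me3 lists 28480 to 34291 peaks. Autosomal islands covered 37.3 to 45.6 Mb in the 6 K27M neurosphere libraries, 145 to 191 Mb in the 3 WT ones, 67.1 to 231 Mb in K27M tumours and 77.6 to 302 Mb in WT tumours. Drosophila chromatin was added as a spike-in, but no scale factor was used here, so no value below is an absolute amount of a mark. The labelled tissue was not checked against marker genes, because gene positions were not available on mm9.

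The Hox clusters held the islands with the most reads in nearly every sample. In 18 of 20 libraries the autosomal island with the most reads overlapped a Hox window, the exceptions being WT tumours 8 and 11. In all 9 neurosphere libraries and all 6 K27M tumours the leading islands of HoxA, HoxB, HoxC and HoxD filled the first 4 ranks. In WT tumours the leading HoxA island ranked 6 at best and 28 at worst, and the leading HoxD island 6 at best and 18 at worst, while HoxB stayed between ranks 1 and 7 and HoxC between 1 and 5. Ranks count the reads of whole islands, also outside the window, so longer islands can rank higher. In WT tumour 10 the HoxB island at rank 1 measured 423 kb and the HoxA island at rank 6 134 kb. Relative to the autosomal mean of the same library, island density in WT tumours averaged 2.27 in HoxA, 2.42 in HoxB, 2.49 in HoxC and 2.07 in HoxD. HoxC, whose genes act mainly in the trunk and spinal cord, was the most uniformly covered: islands filled its 135 kb in 19 of 20 libraries and 134 kb in WT tumour 7.

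**Figure D1:**
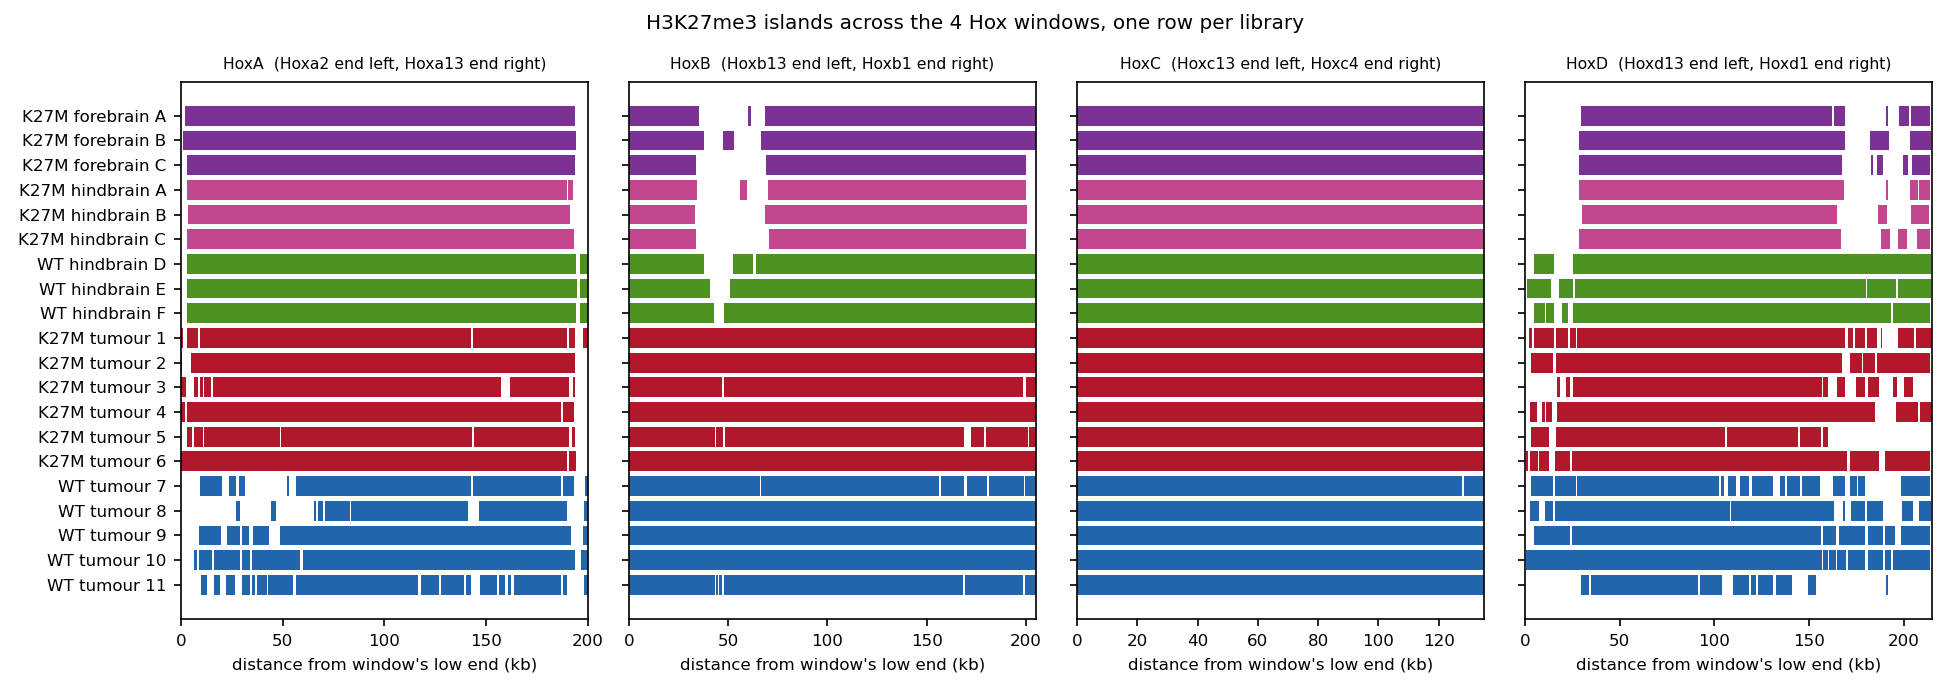
Extent of H3K27me3 islands (filled bars) along each Hox window, with distance from the window's low-coordinate end in kb on the horizontal axis and 1 row per library, coloured by group (purple, K27M forebrain; pink, K27M hindbrain; green, WT hindbrain; red, K27M tumour; blue, WT tumour). HoxC is filled in every row but for a short gap in WT tumour 7, HoxB and HoxD are interrupted in K27M neurospheres, and the Hoxa2 side of HoxA is interrupted in WT tumours.

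In hindbrain neurospheres, the question was whether the clusters hold H3K27me3 where the K27M allele is present. The HoxA window took 2.85%, 3.02% and 2.84% of autosomal island reads in K27M cultures A, B and C, and 0.996%, 1.03% and 0.821% in WT cultures D, E and F. All K27M values lay above all WT values, a 3.08-fold difference of geometric means (log2 difference 1.62 ± 0.10, SE, n = 3 and 3). HoxD took 2.04% ± 0.07 (SD, n = 3) in K27M and 0.719% ± 0.08 in WT, HoxB 1.76% ± 0.09 and 0.695% ± 0.08, and HoxC 1.34% ± 0.07 and 0.439% ± 0.05. K27M and WT values stood apart in all 4 windows. Of 2619 autosomal tiles of 200 kb with an island in every library, 15.2% were higher in K27M without overlap, and the median tile was lower by 0.86 on the log2 scale. With 3 against 3 libraries the exact permutation test cannot go below p = 0.1, which all 4 windows reached.

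Islands elsewhere covered less in K27M cultures. Read density inside the Hox islands, as a multiple of the mean density of the same library's autosomal islands, was lower in K27M than in WT cultures in HoxA and HoxB, without overlap, and overlapped in HoxC and HoxD. For HoxA it was 6.81, 5.98 and 6.83 in K27M A, B and C and 7.38, 7.87 and 8.02 in WT D, E and F. For HoxB it was 4.51 ± 0.28 (SD, n = 3) in K27M and 5.72 ± 0.23 in WT, for HoxC 4.24 ± 0.28 and 5.27 ± 1.02, and for HoxD 5.73 ± 0.38 and 5.69 ± 0.29. Reads per kb of island, not scaled for depth, were higher in K27M cultures in all 4 windows. HoxA held 740 ± 54 in K27M and 354 ± 34 in WT cultures, and HoxB 510 ± 29 and 261 ± 24. The autosomal mean, by which the ratio divides, was also higher in K27M, at 113 ± 7 against 45.5 ± 2.5. The windows made up 1.51% of the autosomal island length in K27M cultures, against 0.456% in WT (means, n = 3 each).

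Reads were also compared over merged islands called in every library, with edgeR's quasi-likelihood test. Of 7 merged regions overlapping a Hox window, 5 were called in every library and could be tested. All 5 were higher in K27M hindbrain cultures, against 25.8% of 3334 regions called higher and 28.3% called lower. These 3334 were the regions with an island in every library, out of 23562 merged. Regions without an island in some culture enter neither these shares nor the scaling. The HoxA region, chr6:52093001-52284600, was 4.12-fold higher (log2 fold change 2.04 ± 0.09, SE, edgeR adjusted p = 6.39e-05), and the HoxD region, chr2:74466801-74663400, was 3.83-fold higher (1.94 ± 0.10). The leading HoxB region, chr11:96087801-96253800, was 3.27-fold and the HoxC region, chr15:102581001-102980400, 3.00-fold higher, and the second HoxB region, which carries the Hoxb13 end, 2.84-fold. Leaving out WT culture F, the only male culture, gave log2 fold changes of 1.80 for HoxA, 1.48 for the leading HoxB region, 1.38 for HoxC and 1.70 for HoxD. Without composition factors, scaled to total reads alone, 9.72% of regions were higher and 63.7% lower, and the median of all regions moved from -0.11 to -1.02 on the log2 scale. Under that scaling the HoxA region stood at 1.13 and the HoxD region at 1.03. Relative to the median region HoxA stood at 2.16 with either scaling, since a change of scaling shifts all regions by nearly the same amount.

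**Figure D2:**
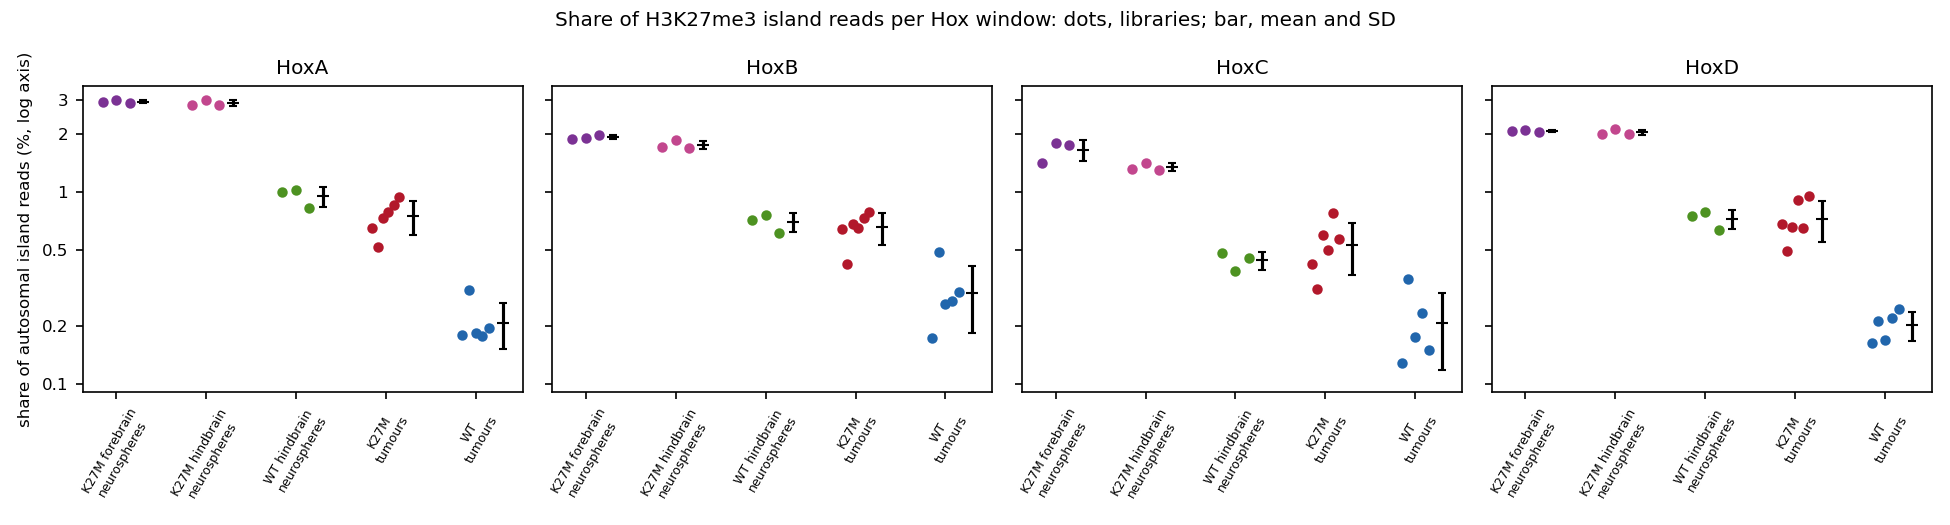
Share of autosomal H3K27me3 island reads in each Hox window (percent, log axis) for the 5 groups, with 1 dot per library and the mean with SD beside it. K27M hindbrain cultures lie above WT hindbrain cultures in every window, and the tumour groups do not overlap in HoxA and HoxD.

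Length showed a different picture from reads. HoxA was covered over 189, 188 and 190.0 kb in K27M cultures and over 195, 196 and 195 kb in WT cultures, and HoxC over 135 kb in all. HoxB was covered over 168, 166 and 163 kb in K27M and over 189, 195 and 200.0 kb in WT cultures. HoxD was covered over 151, 149 and 154 kb in K27M and over 200.0, 207 and 201 kb in WT cultures, the widest difference of the 4 windows (-50.9 ± 2.6 kb, SE, n = 3 and 3). K27M lengths lay below WT lengths without overlap in HoxA, HoxB and HoxD, as they did in 65.4% of 6456 tiles. Each of these 3 gave p = 0.1 in the exact permutation test, the smallest value possible.

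The gaps lay at similar places in the 3 K27M cultures. In HoxB, where RefSeq's order puts Hoxb13 first and Hoxb9 next, the longest gap between islands measured 21.6, 35.2 and 36.8 kb in K27M hindbrain cultures, for example chr11:96073401-96108600 in culture B, and 14.4, 10.2 and 5.0 kb in WT. In HoxD the longest gap measured 22.2, 21.6 and 20.8 kb in K27M cultures, towards the Hoxd1 end (chr2:74617401-74639600 in culture A), and 10.0, 4.4 and 4.4 kb in WT, where it lay near the Hoxd13 end. At the Hoxd13 end the leading HoxD island began at 74477401, 74479001 and 74477401 in K27M cultures A, B and C, with no island before it in the window, whereas each WT culture had islands there. Bases under an island in all WT and in no K27M hindbrain culture summed to 32.6 kb in HoxD, 19.2 kb in HoxB, 5.0 kb in HoxA and 0 kb in HoxC. The longest such stretches were chr2:74617401-74629000 (11.6 kb), chr11:96103801-96108600 (4.8 kb) and, at the Hoxa13 edge of the window, chr6:52286201-52290000 (3.8 kb). No base of any window showed the opposite pattern. Of the length marked in all WT cultures, all K27M cultures also marked 96.0% in HoxA, 86.2% in HoxB, 100% in HoxC and 73.0% in HoxD, against 28.6% over all autosomes.

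Forebrain and hindbrain K27M cultures were compared to ask whether the clusters differ with the region of origin, since Hox genes are normally silent in the forebrain. HoxA took 2.94%, 3.00% and 2.90% of island reads in forebrain cultures A, B and C, next to 2.85%, 3.02% and 2.84% in the hindbrain cultures. HoxD took 2.08% ± 0.02 (SD, n = 3) in forebrain and 2.04% ± 0.07 in hindbrain cultures, and HoxC 1.65% ± 0.21 and 1.34% ± 0.07, with overlapping values in each of these 3 windows. By experiment number, which pairs these cultures, the share was higher in forebrain in 3 of 3 pairs in HoxB and HoxC and in 2 of 3 in HoxA and HoxD, and an exact sign-flip permutation test over 3 pairs cannot go below p = 0.25. HoxB took 1.93% ± 0.04 and 1.76% ± 0.09 without overlap, a log2 difference of 0.14 ± 0.05 (SE), as did 22.2% of 2032 tiles in that direction. Coverage was slightly longer in forebrain cultures without overlap in HoxA (191, 193 and 190.4 kb) and HoxD (156, 162 and 156 kb), as in 13.6% of 4277 tiles. By pairs it was longer in forebrain in 3 of 3 in HoxA, HoxB and HoxD, and the smallest exact permutation p without pairing was again 0.1.

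Of 11 merged regions in the Hox windows, 7 were called in every K27M culture, as were 3363 of 11556 over all chromosomes. None of these 7 differed between forebrain and hindbrain K27M cultures with edgeR (15.4% of 3363 regions were called higher in forebrain), and the lowest adjusted p was 0.0995, for HoxB at a log2 fold change of 0.30 ± 0.12 (SE). At an unadjusted p under 0.05, only this HoxB region was counted, and DESeq2 also called 0. Forebrain and hindbrain cultures share letters and experiment numbers, and with the experiment number as a replicate block 3 of the 7 regions were called higher in forebrain, against 18.6% of all 3363 regions in that fit, among them HoxB (0.31 ± 0.09, edgeR adjusted p = 0.0266) and HoxC (0.26 ± 0.09, edgeR adjusted p = 0.0477). Leaving out K27M hindbrain culture B, 5 of the 7 were called higher in forebrain, against 15.6% of 3478 regions. The fold changes of the leading regions stayed between 1.12 and 1.24 with the block.

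**Figure D3:**
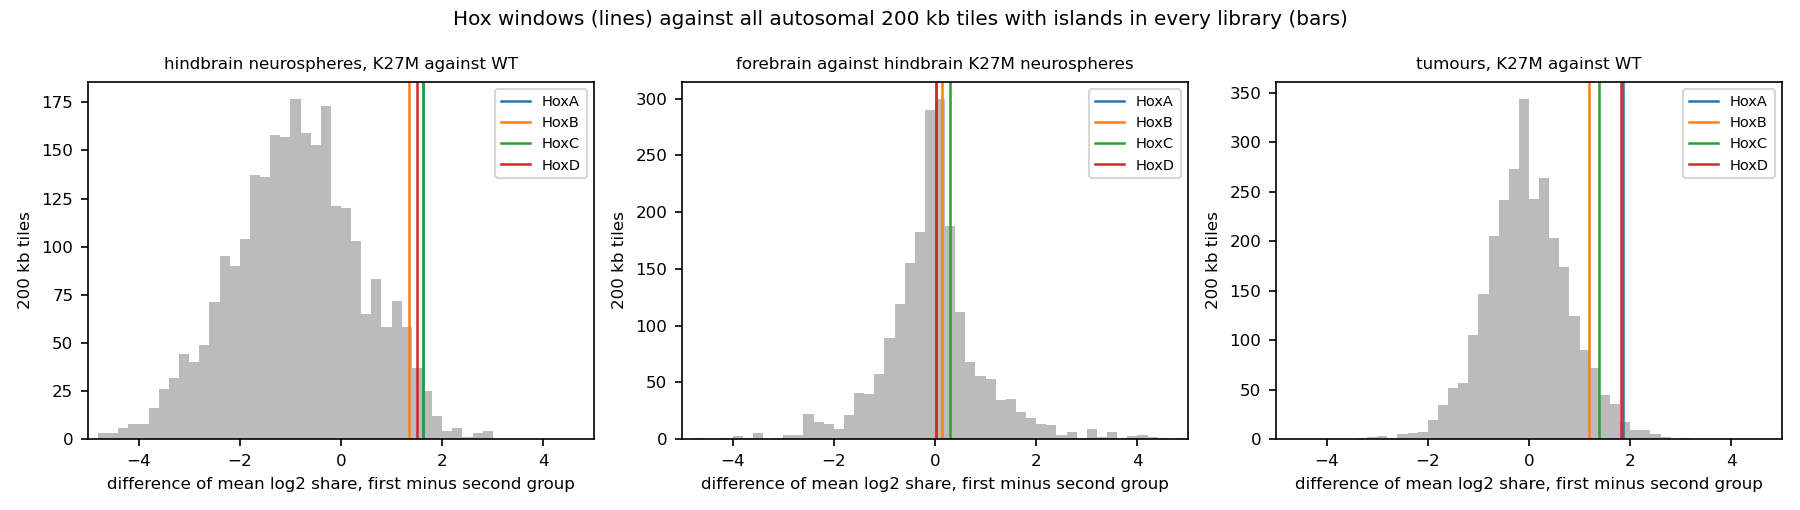
Difference of mean log2 share of island reads for autosomal 200 kb tiles with islands in every library (grey bars, number of tiles) and for the 4 Hox windows (coloured lines) in the 3 comparisons. In hindbrain neurospheres the windows stand at 1.34 to 1.62 (HoxA lies under HoxC), between forebrain and hindbrain at 0.02 to 0.29 and in tumours at 1.18 to 1.85.

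In tumours, the Hox clusters took a larger share of H3K27me3 island reads in the K27M genotype, with the widest difference at HoxA and HoxD. K27M tumours gave HoxA between 0.513% and 0.939% of autosomal island reads, with a median of 0.759%, whereas WT tumours 7 to 11 gave 0.184%, 0.177%, 0.194%, 0.179% and 0.307%. Every K27M tumour lay above every WT tumour, a 3.60-fold difference of geometric means (log2 difference 1.85 ± 0.20, SE, n = 6 and 5, exact permutation p = 0.00216, the smallest possible). HoxD behaved likewise, at 0.493% to 0.950% with a median of 0.665% in K27M and 0.168%, 0.220%, 0.246%, 0.164% and 0.213% in WT tumours 7 to 11, a 3.53-fold difference. Groups did not overlap in these 2 windows, as in 5.44% of 2795 tiles with the same direction.

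HoxB and HoxC differed less and overlapped. HoxB took 0.652% ± 0.13 (SD, n = 6) in K27M and 0.298% ± 0.11 (n = 5) in WT tumours, and HoxC 0.527% ± 0.16 and 0.207% ± 0.09, each with an exact permutation p of 0.00649. WT tumour 11 was the highest WT tumour in both, at 0.484% and 0.351%, and K27M tumour 2 the lowest K27M tumour, at 0.421% and 0.310%. Adjusted over all tiles and the 4 windows, the exact permutation p was 0.0367 for HoxA and HoxD and 0.0577 for HoxB and HoxC, and 8.82% of these features passed 0.05. Sex was unevenly spread over the genotypes, and among female tumours alone (2 K27M and 4 WT) the log2 differences were 2.12, 1.45, 1.68 and 2.05 for HoxA, HoxB, HoxC and HoxD, each with an exact permutation p of 0.0667, the smallest possible there.

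Density inside the Hox islands differed in the same direction as the share in tumours. HoxA islands were 3.09 to 9.29 times as dense as the mean autosomal island of the same library in K27M tumours, with a median of 6.09, and 1.53 (WT 11) to 2.90 times (WT 10) in WT tumours. The genotypes stood apart in HoxA, HoxC and HoxD, with K27M tumour 5 the lowest K27M tumour in each, at 3.09, 3.87 and 2.89. In HoxB, K27M tumour 5 stood at 2.48, inside the WT range of 1.87 to 2.97.

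With edgeR over merged islands called in every tumour, all 4 Hox regions (of 5 merged) were higher in K27M tumours, against 7.14% of 3067 regions (219 higher and 137 lower). These 3067 were the regions called in every tumour, out of 57859 merged. Among the 3067 HoxA had the lowest p and HoxD the next. For the HoxA region, chr6:52021001-52284200, TMM-scaled CPM (reads relative to a composition-adjusted library total) ran from 8767 (K27M 2) to 14754 (K27M 6) in K27M tumours, and were 2896, 2865, 3142, 3289 and 4248 in WT tumours 7 to 11. It was 3.56-fold higher in K27M (log2 fold change 1.83 ± 0.16, SE, edgeR adjusted p = 0.000106). The HoxD region, chr2:74449401-74664000, was 3.36-fold higher (1.75 ± 0.18, edgeR adjusted p = 0.000219). HoxC was 2.27-fold higher (1.18 ± 0.19, edgeR adjusted p = 0.00200) and HoxB 1.74-fold (0.80 ± 0.17, edgeR adjusted p = 0.0101). The merged HoxB and HoxC regions, of 445 and 425 kb, extend beyond the windows. Scaled to total reads alone, 162 regions were higher and 297 lower, and the 4 Hox regions were still called higher, with HoxA at 1.64.

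Island length differed between tumour genotypes mainly at HoxA. K27M tumours covered 181 to 193 kb of HoxA with a median of 190.2 kb, and WT tumours 7 to 11 covered 154, 123, 174, 186 and 156 kb. Only WT tumour 10 reached the K27M range, and the difference was 30.0 ± 10.8 kb (SE, exact permutation p = 0.00649, 0.339 after adjustment over all tiles). In 0.725% of 9105 tiles K27M tumours were all longer than WT tumours. HoxB was covered over 198 to 205 kb and HoxC over 134 to 135 kb in every tumour, and HoxD varied within both genotypes, from 151 to 204 kb in K27M and from 106 kb (WT 11) to 207 kb (WT 10) in WT.

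Much of the HoxA length without islands in WT tumours lay on the Hoxa2 side. On that side of the window's midpoint K27M tumours had 93.6 kb or more under islands, and WT tumours 7 to 11 had 61.4, 36.8, 79.6, 88.8 and 76.2 kb. The midpoint was chosen as a divide after the values were seen, so no test is given. On the Hoxa13 side the groups overlapped, at 87.2 to 94.2 kb in K27M and 79.8 (WT 11) to 97.0 kb (WT 10) in WT. WT tumour 11 lay below every K27M tumour on both sides. The longest gap lay on the Hoxa2 side in WT tumours 7 (chr6:52121601-52142000, 20.4 kb) and 8 (chr6:52137001-52155200, 18.2 kb). It lay at the Hoxa13 end in WT tumours 9 (chr6:52281801-52287800, 6.0 kb), 10 (chr6:52283601-52286600, 3.0 kb) and 11 (chr6:52279801-52288000, 8.2 kb). No K27M tumour had a gap above 4.6 kb. Stretches fully separated by genotype were nearly absent, at 1.4 kb in HoxA (under islands in all K27M and no WT tumours) and 0 kb in the other 3 windows. WT tumour 10, the most covered WT tumour in HoxA and HoxD, also had the most island reads and the longest autosomal coverage, and the part of depth in these lengths was not tested.

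In HoxA, HoxB and HoxC, H3K27ac and H3K4me3 peaks lay mostly on the low-numbered side of the window's midpoint, where called, and in HoxD the side differed between tumours. In HoxA at most 0.621 kb of H3K27ac and 3.16 kb of H3K4me3 lay on the Hoxa13 side in any tumour. In HoxB all H3K27ac lay on the Hoxb1 side in the 8 tumours with a peak, and in HoxC only WT tumour 10 had H3K27ac on the Hoxc13 side, at 1.76 kb. In HoxD, WT tumours 7, 8 and 10 had more H3K27ac on the Hoxd13 side (6.88, 7.12 and 7.498 kb) than on the Hoxd1 side (4.70, 1.65 and 4.31 kb), whereas WT tumours 9 and 11 had 0 and 2.84 kb and K27M tumours at most 0.302 kb on the Hoxd13 side. This H3K27ac lay towards the middle of the 215 kb window and not at its Hoxd13 end. The first H3K27ac region of HoxD in any tumour began 86.6 kb from the low-coordinate end. Pooled over the 4 windows, of which HoxA holds the largest part in each tumour, 85.9% to 100% of H3K27ac and 80.7% to 96.6% of H3K4me3 peak length lay on the low-numbered side. In HoxA an H3K27ac region at chr6:52106073-52124106, 16.1 kb from the Hoxa2 end of the window, was called in all 11 tumours and held 11.8 to 16.8 kb of peaks in each. H3K4me3 filled the same place at chr6:52106247-52119612 in all 5 tumours profiled, with 10.7 to 12.8 kb of peaks. Further H3K4me3 regions called in all 5 tumours lay at chr6:52125990-52131517 and chr6:52152182-52164047.

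**Figure D4:**
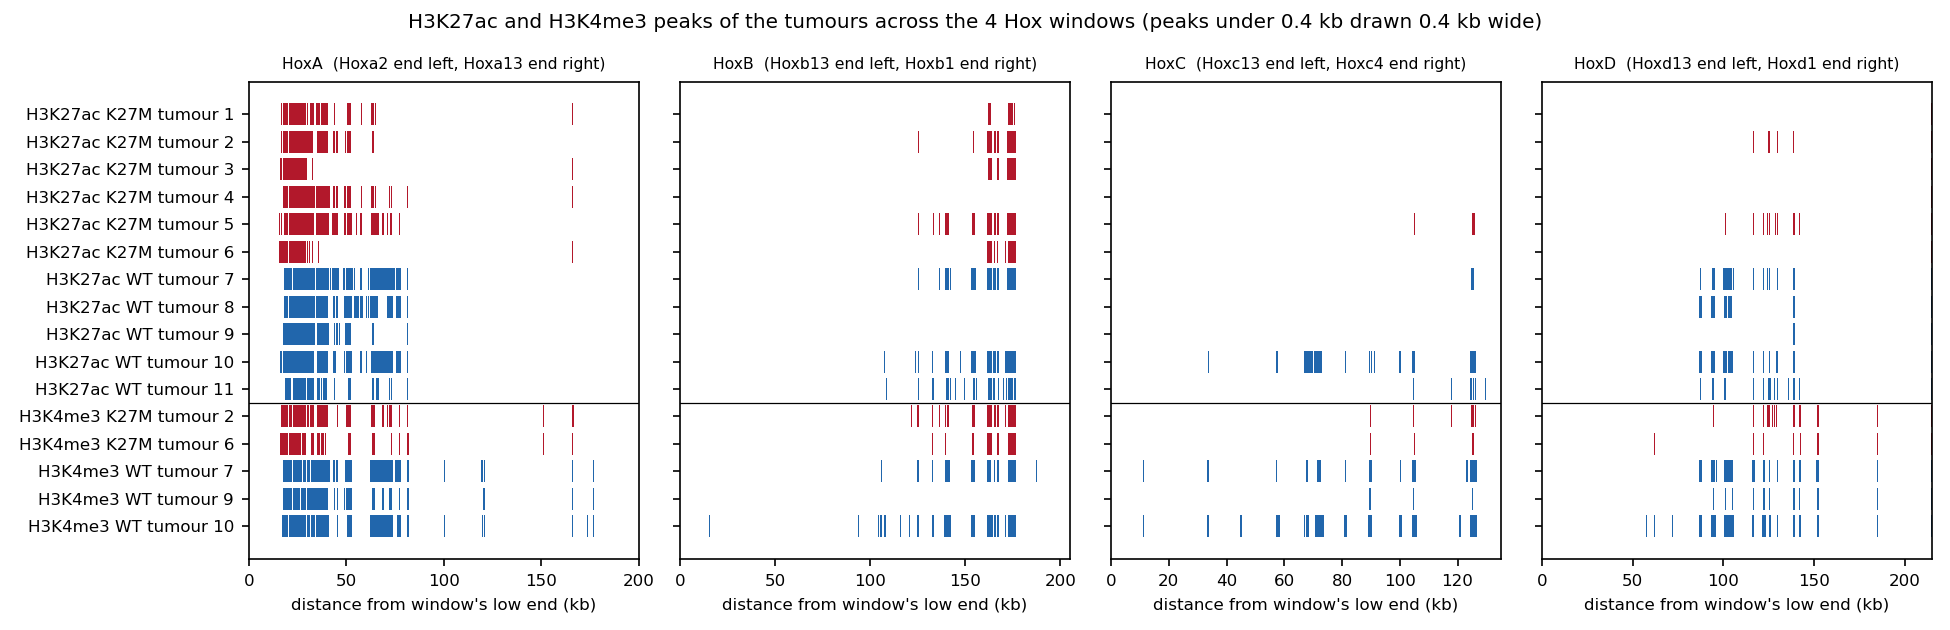
H3K27ac peaks in 11 tumours (above the line) and H3K4me3 peaks in 5 tumours (below it) along each Hox window, with distance from the window's low-coordinate end in kb, red for K27M and blue for WT tumours. HoxA is marked near the Hoxa2 end in every row, HoxB is empty in K27M tumour 4 and WT tumours 8 and 9, and left of the middle of HoxD H3K27ac lies in WT tumours 7, 8, 10 and 11 and, as 1 narrow peak, in K27M tumour 5.

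The other clusters were acetylated in some tumours and not in others. In HoxB no H3K27ac region was called in all tumours: K27M tumour 4 and WT tumours 8 and 9 had 0 peaks in the window, and WT tumour 9 had no H3K4me3 peak there either, while the remaining 8 tumours had 4.52 to 18.4 kb of H3K27ac peaks. Their widest H3K27ac regions, at chr11:96201297-96204364 and chr11:96210722-96216814, lay towards the Hoxb1 end and were called in the same 5 K27M and 3 WT tumours. In HoxC, H3K27ac reached 11.9 kb in WT tumour 10, 1.83 kb in WT 11, 1.05 kb in WT 7 and 0.872 kb in K27M 5, and no peak was called in the other 7 tumours. H3K4me3 in HoxC was called as 12, 3 and 13 peaks in WT tumours 7, 9 and 10 and as 6 and 3 peaks in K27M tumours 2 and 6. 3 H3K4me3 regions were called in all 5 tumours in HoxC, the widest at chr15:102864397-102866798.

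HoxD carried more H3K27ac in WT tumours, a difference that did not pass adjustment over tiles. Peaks summed to 0.499, 2.41, 0.553, 0.542, 5.85 and 0.552 kb in K27M tumours 1 to 6 and to 11.6, 8.76, 1.21, 11.8 and 9.19 kb in WT tumours 7 to 11. WT tumour 9 lay within the K27M range and the other 4 WT tumours above it. The difference was -6.78 ± 2.12 kb (SE, exact permutation p = 0.0195, 0.971 after adjustment over 9122 tiles). WT tumour 9 was the only male WT tumour, whereas K27M tumours 1 to 4 were male. The part of sex in this difference was not tested. A pair of regions, chr2:74535554-74537009 and chr2:74541902-74544385, were called in WT tumours 7, 8, 10 and 11 and in no K27M tumour (Fisher's exact test, unadjusted p = 0.0152, named after their values were seen). A further region crossing the Hoxd1 edge of the window, chr2:74663407-74664625, was called in all 11 tumours. H3K4me3 in HoxD measured 8.14 and 4.44 kb in K27M 2 and 6 and 18.5, 7.61 and 20.1 kb in WT 7, 9 and 10, and on the Hoxd13 side of the midpoint 0.301 and 0.414 kb against 9.66, 1.41 and 11.5 kb. In HoxD, regions at chr2:74564731-74566450 and chr2:74570481-74571838 carried H3K4me3 in all 5 tumours.

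In HoxA, H3K27ac peaks summed to 23.9, 26.8, 13.5, 32.6, 34.4 and 15.6 kb in K27M tumours 1 to 6 and to 46.1, 41.5, 27.3, 42.8 and 21.2 kb in WT tumours 7 to 11, and this difference did not pass (-11.3 ± 6.0 kb, SE, exact permutation p = 0.0823), though without WT tumour 11 the exact permutation p was 0.0333. HoxB and HoxC did not pass either (exact permutation p = 0.556 and 0.0606), though HoxC gave 0.0333 without WT tumour 8 or 9. As a share of all autosomal H3K27ac peak length, the 4 windows held 0.0590% to 0.183% in K27M tumours and 0.0957% to 0.164% in WT tumours. No Hox window had H3K27ac lengths in K27M tumours below all WT tumours, a pattern seen in 0.197% of 9122 tiles. Of 75 merged H3K27ac regions in the windows, 66 were called in a larger share of WT than of K27M tumours and 7 in a larger share of K27M tumours, where 46.3% of all 99012 regions were called in a larger share of WT tumours and 38.5% in a larger share of K27M tumours. Without WT tumours 10 and 11 together, those with the most and the fewest island reads, the counts were 37 and 13 of 58, against 30.0% and 46.5% of all 89999 regions. None passed Fisher's exact test after adjustment, as 0% of all regions did. Only regions called in every tumour of one genotype and in none of the other reach the smallest possible p. Of all 99012 regions, 20 were called in every K27M and no WT tumour, and 10 the other way round. These were too few for any adjusted p to pass, so the adjusted test could not decide for single regions. Of the 75, 2 had an unadjusted p under 0.05, as did 363 (0.367%) of all regions. Without WT tumours 10 and 11 together, 0 of 58 did.

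H3K4me3 could be compared only between 2 K27M and 3 WT tumours, where the exact permutation p cannot go below 0.1. In HoxA peaks measured 32.4 and 22.6 kb in K27M 2 and 6 and 44.9, 33.0 and 42.3 kb in WT 7, 9 and 10, without overlap (exact permutation p = 0.2), as in 4.99% of 8641 tiles. In HoxA, regions at chr6:52209716-52210357, chr6:52210554-52210996 and chr6:52266532-52266980 were called in all WT and no K27M tumours, a pattern of 0.509% of 41271 regions, and chr6:52240894-52241598 in both K27M and no WT tumours, a pattern of 1.8%. A larger share of WT tumours was called at 12 of 22 H3K4me3 regions in HoxA, 9 of 20 in HoxB, 11 of 15 in HoxC and 10 of 20 in HoxD, against 22.8% of all H3K4me3 regions. A larger share of K27M tumours was called at 1, 11, 1 and 3 of these regions in HoxA, HoxB, HoxC and HoxD, against 28.6% of all. WT tumour 9 had no H3K4me3 peak in HoxB, so regions called in both K27M tumours and in WT 7 and 10 count in that direction. Such regions made up most of the 11, so the HoxB count depends on WT tumour 9.

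In HoxA the marks of active and silent chromatin were called over the same bases more completely in K27M than in WT tumours. Between 98.96% and 100% of the HoxA H3K27ac peak length of each K27M tumour lay inside that tumour's own H3K27me3 islands. In WT tumours 7 to 11 it was 55.9%, 25.4%, 77.5%, 97.5% and 76.7%, below every K27M tumour. Islands covered 90.4% to 96.7% of the HoxA window itself in K27M tumours and 61.6% (WT 8) to 92.9% (WT 10) in WT tumours. How far this cover sets the share inside islands was not tested. Over the 4 windows together the share inside islands was 97.4% to 100% in K27M tumours and 69.9%, 37.6%, 76.9%, 98.1% and 86.5% in WT tumours 7 to 11, of which WT 10 fell inside the K27M range. Over all autosomal H3K27ac peaks of the same libraries the share was 7.88% to 22.2% in K27M and 2.16% to 10.0% in WT tumours. In HoxB and HoxC all H3K27ac and H3K4me3 peak length lay inside islands, in every tumour with a peak there. Islands covered 96.8% to 100% of HoxB and 99.4% to 100% of HoxC in the tumours, so this could hardly have come out otherwise. In HoxD the share inside islands ran from 0% (K27M 3 and 6, with 1 peak each) to 100% (K27M 1) in K27M tumours and from 62.6% to 95.4% in WT tumours. Whether both marks sat on the same cells or alleles cannot be told apart in bulk tissue.

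**Figure D5:**
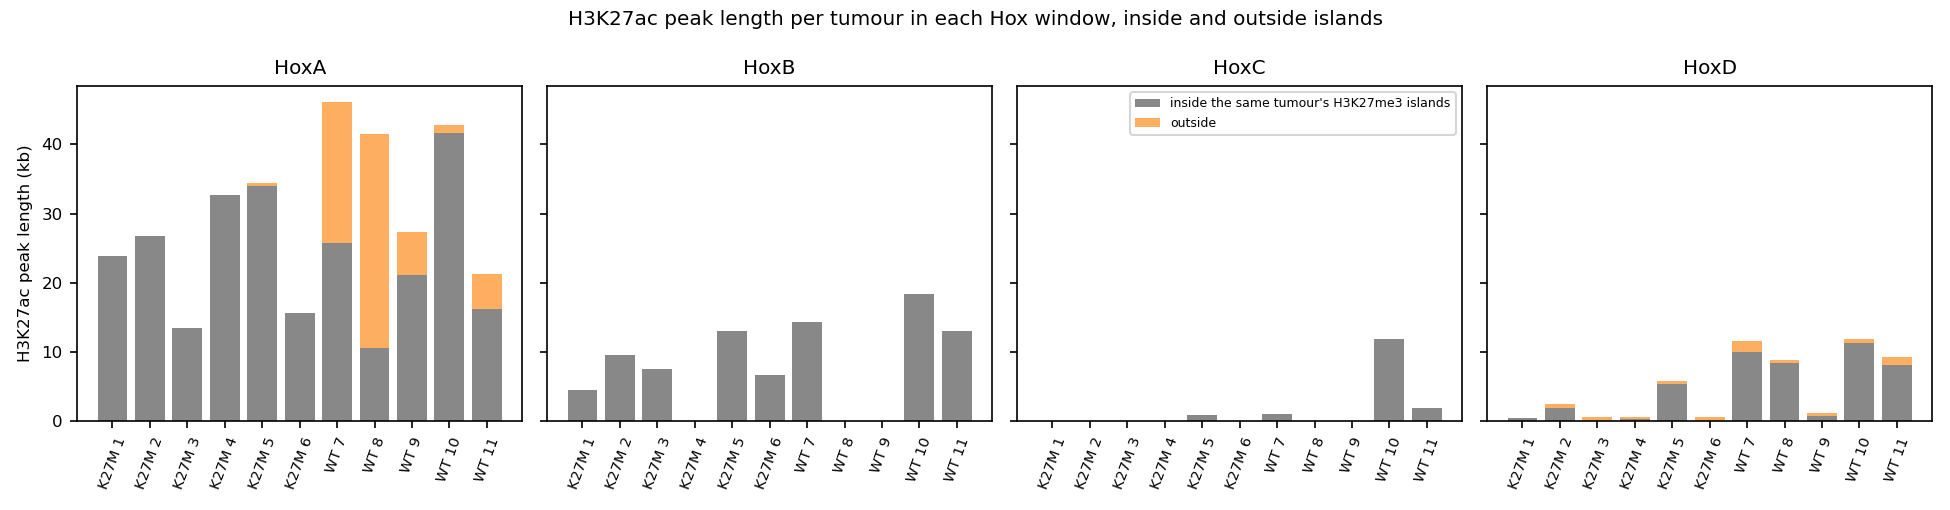
H3K27ac peak length (kb) in each Hox window for the 11 tumours, divided into length inside the same tumour's H3K27me3 islands (grey) and outside them (orange). In HoxA nearly all of it is grey in K27M tumours, while in WT tumour 8 only 25.4% of the HoxA length is grey.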

How the data were processed

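H3K27me3, H3K27ac and H3K4me3 were measured by ChIP-seq, and 36 lists of 1 sample each were analysed; the 23 input samples were not analysed here. Per the submitters' processing notes, which give neither role nor order, SICER 1.1, MACS2, bedtools 2.25.0, BWA 0.7.12, SAMtools, Picard and R 2.14.0 were used, with build mm9. Island lists as deposited give a read count per SICER-style island, on a 200 bp grid, with no depth or background. Peak lists as deposited give MACS2-style scores, fold enrichment and −log10 p and q per peak, all the authors' values. Listed island ends were extended by 1 bp to close this grid. Islands and peaks were clipped to the windows and reads divided by length. Shares are of autosomal island reads and depend on how much was called elsewhere. Group differences were tested with two-sided exact permutation tests over samples, adjusted (Benjamini-Hochberg) over 200 kb autosomal tiles and the windows. Reads in islands merged over libraries (1 bp overlap) and called in every library were tested with edgeR 4.0.16 (quasi-likelihood, robust, TMM, R 4.3.3), with DESeq2 1.42.0 as an alternative. The edgeR fits were tested on counts simulated over the tested regions, in 5 runs. They recovered 43.6% of 2-fold changes between hindbrain genotypes, 74% between forebrain and hindbrain and 28.2% between tumour genotypes. Of 4-fold changes they recovered 93%, 98.6% and 91.4%. False calls made up 4.93%, 6.21% and 4.46% of all calls on average. Regions named are the leading one per window, and the widest peak regions called in every tumour or separated by genotype. Same-numbered forebrain and hindbrain K27M cultures deviated together (correlations 0.20, 0.24 and 0.21 for experiments 1, 2 and 3), so the experiment number pairs them; K27M and WT hindbrain cultures did not (0.10, -0.03 and 0.02). The windows, members and lists were chosen with earlier results of these data known. Alternatives included scaling, filters, trimmed windows, single sexes and leaving out each library.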

Additional observations from a re-analysis of the deposited data

Results flagged for a closer look

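Of 32 sets of 4 to 10 samples examined for a single sample far from the rest, 8 held one. The rule has a chance rate of about 1 in 20 only for independent, normally spread values. Where all other samples share 1 value, as for some HoxC sets below, any departure is flagged, so 8 of 32 cannot be set against that rate. For H3K27me3, WT tumour 11 took 0.307% of island reads in HoxA, against 0.177% to 0.194% in the other WT tumours. K27M tumour 5 had 198 kb of HoxB under islands, against 203 to 205 kb in the other K27M tumours. WT tumour 7 had 134 kb of HoxC under islands and a gap of 0.8 kb there, against 135 kb and no gap in the other WT tumours. Its length and gap were flagged separately for the same 0.8 kb. For H3K27ac, K27M tumour 5 had 0.872 kb of peaks in HoxC, against 0 kb in the other K27M tumours, and 5.85 kb in HoxD, against 0.499 to 2.41 kb. WT tumour 10 had 11.9 kb in HoxC, against 0 to 1.83 kb in the other WT tumours. WT tumour 9 had 1.21 kb in HoxD, against 8.76 to 11.8 kb.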

How the results depend on the processing

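Of 646 alternative values over 52 results, 619 kept their direction and their side of the threshold or stayed within the spread used to judge them. In the exact permutation tests of neurosphere windows and of H3K4me3 lengths, p could not pass the threshold at these sample sizes. Those values could change in direction but not in side, and HoxC island length was the same in every neurosphere library. The count therefore overstates how far the results were tested. Trimming the windows turned the HoxA forebrain-hindbrain difference in log2 share to -0.00327. Among female tumours alone, the log2 share differences between genotypes were 2.12 in HoxA, 1.45 in HoxB, 1.68 in HoxC and 2.05 in HoxD, the HoxA island length difference was 34.5 kb and the HoxB one -1.0 kb, with no p able to pass at that size for the shares. Leaving out WT tumours 10 and 11, those with the most and the fewest island reads, together, chosen after seeing the data, gave an H3K27ac difference of 2.11 kb in HoxB and 37 Hox H3K27ac regions called in a larger share of WT tumours. With the experiment number as a replicate block, forebrain against hindbrain K27M cultures gave 3 called Hox regions, with log2 fold changes of 0.31 for HoxB and 0.26 for HoxC, and the block changed no call between K27M and WT hindbrain cultures. Pairing the forebrain and hindbrain window values by experiment, added after seeing the data, changed no call, with p of 0.25 or more in an exact sign-flip test. No paired analysis of tumours was made, since their numbers are not shared. Leaving out 1 library at a time, the tumour island length difference ran from -0.45 (without WT 7; also below 0 without WT 11) to 1.36 kb in HoxB and from -5.38 (without WT 11) to 19.9 kb in HoxD. H3K27ac differences ran from -15.0 (without WT 11) to -8.73 kb in HoxA, from -4.55 to 0.0404 kb (without WT 10) in HoxB and from -3.56 to -0.574 kb (without WT 10) in HoxC, and H3K4me3 in HoxB from -7.24 to 3.55 kb (without WT 10; also above 0 without K27M 6 or WT 7). Between forebrain and hindbrain, log2 fold changes ran from 0.071 to 0.24 in HoxA, 0.21 to 0.39 in HoxB, 0.17 to 0.34 in HoxC and 0.072 to 0.24 in HoxD, with 0 to 5 regions called, the highest without hindbrain culture B. Beyond the smaller number of samples in these fits, the cause was not tested. Island reads ran from 3208588 to 16323822 per library, which limits how well short gaps compare.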

Other observations

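HoxB H3K27ac was called in some tumours and not in others, as was HoxC H3K27ac. The HoxB window held no H3K27ac peak in K27M tumour 4 and WT tumours 8 and 9, although the same tumours had 32.6, 41.5 and 27.3 kb of H3K27ac peaks in HoxA. In these 3 tumours H3K27me3 islands filled the whole 205 kb HoxB window without a gap. WT tumour 10, which had the most HoxB acetylation at 18.4 kb, was filled over 205 kb as well. These tumours were set side by side after their values were seen, and no test was made.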
